A study of Mus musculus with 20 samples.

Results

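Glycolysis, lactate export and the hypoxia response were followed in mouse blood through 10 genes: the lactate exporter Slc16a3, the stress-induced inhibitor Ddit4, the hypoxia factor Hif1a, the glycolytic genes Hk2, Hk3, Aldoa, Pgk1 and Ldha, the glucose transporter Slc2a3 and the bifunctional enzyme gene Pfkfb4. All probes bearing one of these names or an older alias of it were taken, which gave 15 of the 41174 probes on the array. Of these, 12 probes, at least 1 for each of the 10 genes, were bright enough to be tested among 20920 probes in all. The blood came from 4 female C57Bl/6 mice, numbered 305, 310, 315 and 320. They were bled before (day 0) and 10, 15, 20 and 25 days after Hepa1-6 cells, a mouse hepatoma line, were injected under the skin. Every later sample therefore came from a tumour-inoculated mouse, and tumour-free mice at those days were not analysed here. Each of the 20 arrays carried 1 blood sample labelled with Cy5 beside a common reference of untreated female C57Bl/6 blood labelled with Cy3. Values below are log2(Cy5/Cy3) of a probe after loess normalization of its array, and a change is the difference of 2 such values. Thus 0 is the array's own trend over probes of like brightness, which need not equal the level in the reference. Levels of different probes are not comparable with each other.

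Glycolysis breaks glucose down to pyruvate in the cytosol, and lactate dehydrogenase turns pyruvate into lactate, which leaves the cell through monocarboxylate transporters. When oxygen is low the factor HIF-1, of which Hif1a is the regulated subunit, binds short core motifs in DNA and raises the transcription of many glycolytic genes. Neutrophils, which are among the white cells of blood, depend strongly on glycolysis, and mature red cells have no mitochondria and live on it.

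Promoters were searched for the core of the HIF binding site, ACGTG or GCGTG, on both strands over the 250 bases before the start of transcription (RefSeq, GRCm38.p6). Promoters of 9 of the 10 genes were matched by symbol, Slc2a3 not, and all 9 had at least 1 match, in 11 of 12 promoters. Over all 32851 mouse promoters of the same length, 38.6% held a match, 16.57% held ACGTG and 28.16% held GCGTG. The genes were partly chosen for being known HIF targets, and base composition was not compared, so the count describes these windows only. The sequences of 4 members follow, Slc16a3, Ddit4, Ldha and Hk2, chosen after their values were seen because calls of theirs were kept under every alternative run. Aldoa, the fifth such gene, has 3 listed promoters and is not printed. Another listed promoter of Ldha, with 1 match (GCGTG), is not printed either. Capitals mark the motif letters on either strand. A palindromic CACGTG, the E-box, holds the core ACGTG on both strands at once. It was found in 6.02% of all promoters, and here in that of Hif1a and the printed one of Ldha.
Slc16a3, chr11:120948817-120949066, plus strand: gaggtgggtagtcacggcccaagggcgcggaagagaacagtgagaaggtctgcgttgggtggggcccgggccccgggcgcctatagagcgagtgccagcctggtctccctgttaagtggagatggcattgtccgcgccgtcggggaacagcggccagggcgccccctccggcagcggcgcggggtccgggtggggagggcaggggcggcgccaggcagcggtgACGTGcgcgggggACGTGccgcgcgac
Ddit4, chr10:59951771-59952020, minus strand: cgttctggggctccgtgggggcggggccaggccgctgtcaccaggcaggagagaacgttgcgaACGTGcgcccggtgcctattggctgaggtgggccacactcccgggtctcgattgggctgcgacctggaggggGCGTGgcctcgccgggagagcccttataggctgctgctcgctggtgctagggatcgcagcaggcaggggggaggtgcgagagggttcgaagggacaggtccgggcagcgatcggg
Ldha, chr7:46845554-46845803, plus strand: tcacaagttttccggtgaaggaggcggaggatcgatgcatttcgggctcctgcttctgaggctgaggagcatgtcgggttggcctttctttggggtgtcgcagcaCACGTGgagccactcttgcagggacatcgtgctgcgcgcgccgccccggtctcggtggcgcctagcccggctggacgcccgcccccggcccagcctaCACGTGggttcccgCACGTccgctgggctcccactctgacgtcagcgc
Hk2, chr6:82774455-82774704, minus strand: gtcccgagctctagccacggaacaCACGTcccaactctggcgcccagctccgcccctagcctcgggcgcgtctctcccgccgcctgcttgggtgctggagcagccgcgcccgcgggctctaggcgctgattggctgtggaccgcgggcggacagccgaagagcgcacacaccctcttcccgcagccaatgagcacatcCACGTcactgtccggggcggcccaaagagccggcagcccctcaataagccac
The 2 matches of Slc16a3 began 27 and 14 bases before the start, and those of Ddit4 began 187 and 115 bases before it. Hk2 had 2 matches, 226 and 52 bases before it, and this promoter of Ldha had 5, of which 4 come from its pair of E-boxes.

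The arrays of different days differed in brightness and layout. Every day has a slide to itself, which carries its 4 arrays, and day and slide therefore cannot be told apart in any comparison. Slides of days 15, 20 and 25 were scanned on 1 day and those of days 0 and 10 on days of their own. The median Cy3 signal of the reference, net of local background, was 79.6 to 110 intensity units on the day 0 arrays and 7.53 to 25.9 on all later arrays. Between 37.7% and 51.2% of the Cy5 spots of an array were well above background. Of the 20 arrays, 2 of day 0 and 3 of day 20 correlated on average better across probes with the arrays of another day than with those of their own. At day 0 these were mouse 320 (r = 0.531 with day 10, 0.482 with its own day) and mouse 305 (0.559 with day 25, 0.495 with its own). At day 20 they were mice 310, 315 and 320 (0.702 to 0.710 with day 10 or 15, 0.633 to 0.645 with their own). The day 20 array of mouse 305 had the lowest mean correlation with its own day (0.471).

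No tested probe of the 10 genes passed the threshold as higher at a later bleed than at day 0, and several passed it as lower. All tests were made with limma across the 20920 probes, with Benjamini-Hochberg adjustment and a threshold of 0.05. At day 10, 4 of 12 probes were lower than at day 0, where 19.4% of all probes tested were lower and 15.6% higher. At day 15, 6 of 12 were lower, against 20% of all probes (18.1% higher). At day 20, 8 of 12 were lower, against 10.5% of all probes (7.17% higher), and at day 25 only 2 of 12, against 6.85% (5.4% higher). The F test over these 4 comparisons passed for 8 of 12 probes and for 54.2% of all probes. The median change of the 12 probes was -0.29, -0.22, -0.38 and -0.03 at the 4 days, and that of all probes -0.06, -0.05, -0.05 and -0.03. Between later days, 3 of 12 probes were higher and 1 lower at day 25 than at day 10 (19.3% and 17.8% of all probes), and 4 were higher and 0 lower at day 25 than at day 20 (8.3% and 10.5%). In either direction that is 4 of 12 in both, where 37% and 18.8% of all probes were called. The median changes of the 12 probes were 0.13 and 0.21, and those of all probes 0.05 and 0.05. At an unadjusted p under 0.05 in limma there were 4, 7, 8 and 2 probes at days 10, 15, 20 and 25 against day 0 (45.8%, 47.5%, 33.2% and 29.6% of all probes). There were 6 at day 25 against day 20 (32.7% of all probes). The 4 values of the 2 days did not overlap for 3, 3, 8 and 3 of the 12 probes at days 10, 15, 20 and 25 against day 0 (27.1%, 29.6%, 16.5% and 14.9% of all probes). At day 25 this held for 5 probes against day 10 and 6 against day 20 (37.9% and 23.2% of all probes). These comparisons share arrays, so their counts are not independent of each other.

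**Figure D1:**
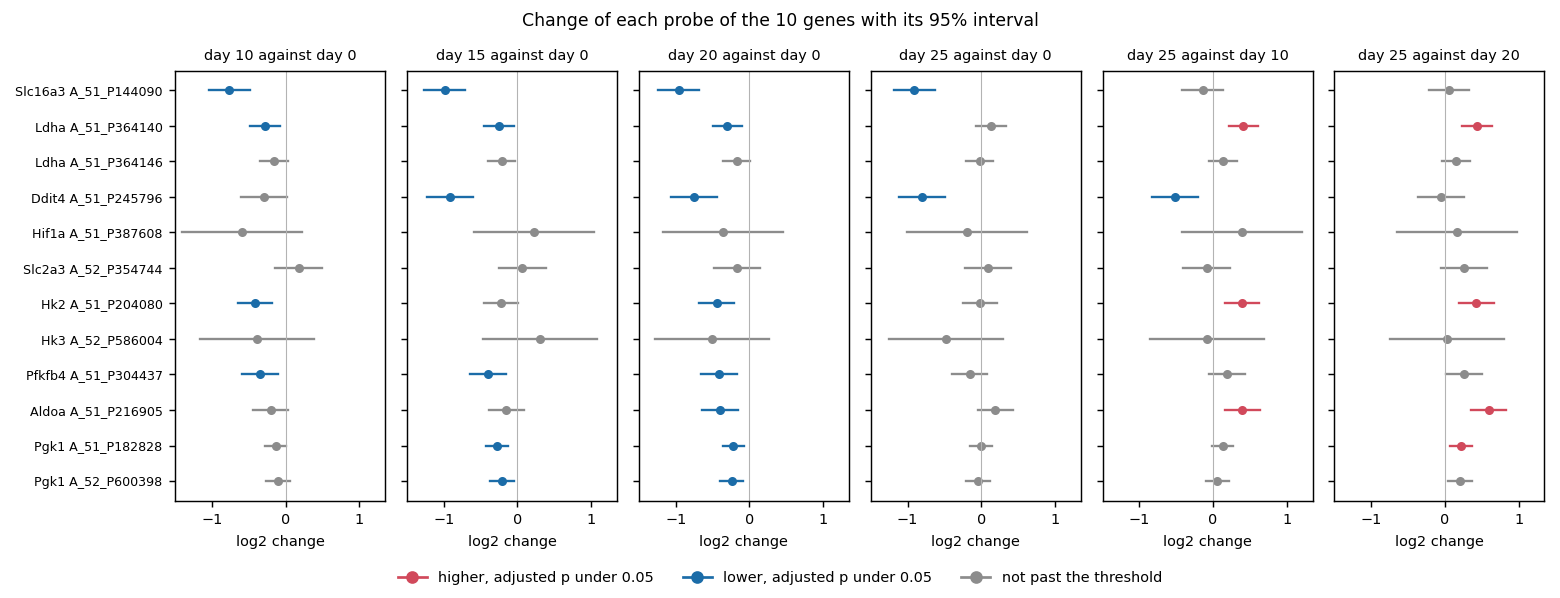
Log2 change (x axis) of each tested probe of the 10 genes (rows) in 6 comparisons, with points for the estimate and lines for its 95% interval, coloured by whether the adjusted p was under 0.05. Slc16a3 lies below 0 in all 4 comparisons with day 0, while the probes of Ldha (A_51_P364140), Hk2 and Aldoa lie above 0 at day 25 against days 10 and 20.

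The 28 calls among 72 tests were not equally firm. The count of 8 at day 20 became 5 without mouse 305 or 320 of day 20 or mouse 310 or 315 of day 0. It became 3 without mouse 315 of day 20. Of all 20920 probes, 3697 were called at day 20 with all arrays. Without the arrays just named, in that order, these were 3610, 2404, 3332, 2897 and 2129. The count of 4 at day 10 became 2 without mouse 310 of day 0 or mouse 305 of day 10. Of all probes, 7335 were called at day 10 with all arrays, and 6556 and 5997 without these. The fit used background parameters from the negative control spots, a choice made after results had been seen. With limma's default estimate, 18 of the 28 calls were kept and the counts against day 0 were 2, 5, 2 and 1. Of all 20920 probes, that estimate called 2343, 1227, 607 and 31, where 7335, 7962, 3697 and 2564 were called here. Under every alternative run and with any 1 array left out, 9 calls were kept. Against day 0 these were Slc16a3 at days 15 and 20 and Ddit4 at day 15. At day 25 against both day 10 and day 20 they were Ldha (A_51_P364140), Hk2 and Aldoa. Not every alternative could end them. Quantile scaling leaves every ratio as it is, and median centring moved the median of all probes in the direction of each of these calls. The share of all probes that would be kept likewise is not given.

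Slc16a3 encodes MCT4, the transporter that exports lactate from glycolytic cells. Its level was lower at all 4 later bleeds than before inoculation. The 4 mice, in the order 305, 310, 315 and 320, had log2(Cy5/Cy3) values of 0.95, 1.08, 0.94 and 1.26 at day 0, and of -0.02, 0.44, 0.39 and 0.36 at day 10. They had 0.04, -0.17, 0.18 and 0.23 at day 15, 0.02, 0.52, -0.08 and -0.08 at day 20, and 0.29, 0.14, 0.21 and -0.03 at day 25. Every later value lay below every day 0 value, and the later days overlapped each other. The mean was 1.06 at day 0 and 0.29, 0.07, 0.10 and 0.15 at days 10, 15, 20 and 25. Day 0 thus stood farthest from 0, although it preceded inoculation and the reference was untreated blood. The cause of that distance was not tested. The log2 change was -0.77 (SE 0.13) at day 10, -0.99 at day 15, -0.96 at day 20 and -0.91 at day 25, each against day 0, with the same SE, n = 4 mice and limma's adjusted p of 0.00034, 2.31e-05, 0.000151 and 0.00045. The change at day 15 was a 1.99-fold lower ratio. Day 25 differed from day 20 by 0.05 (95% interval -0.22 to 0.33, adjusted p = 0.813 in limma). Of all probes tested, 1.8% were lower in all 4 comparisons with day 0. Slc16a3 was the single probe of the 12 in that group, and leaving out any 1 array ended none of its 4 calls. The day 10 call ended with scale normalization between arrays (-0.32, adjusted p = 0.117 in limma) and with the Cy5 channel alone. The day 25 call ended with the default background estimate (adjusted p = 0.0521).

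Ldha encodes the subunit of lactate dehydrogenase that prevails where pyruvate is turned to lactate, and it was measured by 2 probes of the same transcript that do not overlap and lie 1463 bases apart. The brighter probe, A_51_P364140, was lower at days 10, 15 and 20 than at day 0 and returned at day 25. Its values were 0.23, 0.22, 0.23 and -0.06 in mice 305, 310, 315 and 320 at day 0, and -0.19, -0.02, -0.16 and -0.12 at day 10. They were 0.07, -0.02, -0.31 and -0.13 at day 15, -0.10, 0.05, -0.25 and -0.28 at day 20, and 0.21, 0.25, 0.44 and 0.27 at day 25. All 4 day 25 values lay above all values of days 10 and 20, whereas mouse 320 at day 0 lay within the ranges of days 10, 15 and 20. The changes against day 0 were -0.28, -0.25 and -0.30 (SE 0.10, limma adjusted p = 0.0296, 0.0431 and 0.036). Each ended without any 1 of 5 or 6 arrays, at adjusted p of up to 0.0742, 0.166 and 0.108. All 3 calls ended without the day 0 array of mouse 305, 310 or 315. The day 10 call also ended without mouse 305, 315 or 320 of day 10. The day 15 call also ended without mouse 315 or 320 of day 15 or mouse 320 of day 10, and the day 20 call without mouse 315 or 320 of day 20. All 3 calls also ended with scale normalization between arrays and with the default background estimate. The day 20 call further ended with the scanner's log ratio and with 1 unit in place of 50 added before taking logs. At day 25 the probe was higher than at day 10 by 0.41 and than at day 20 by 0.43 (adjusted p = 0.00204 and 0.0036 in limma). The other probe, A_51_P364146, passed the threshold in no comparison. Its closest was day 15 against day 0, at -0.22 (adjusted p = 0.0588 in limma), and at day 25 against day 20 it changed by 0.15 (95% interval -0.03 to 0.33).

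**Figure D2:**
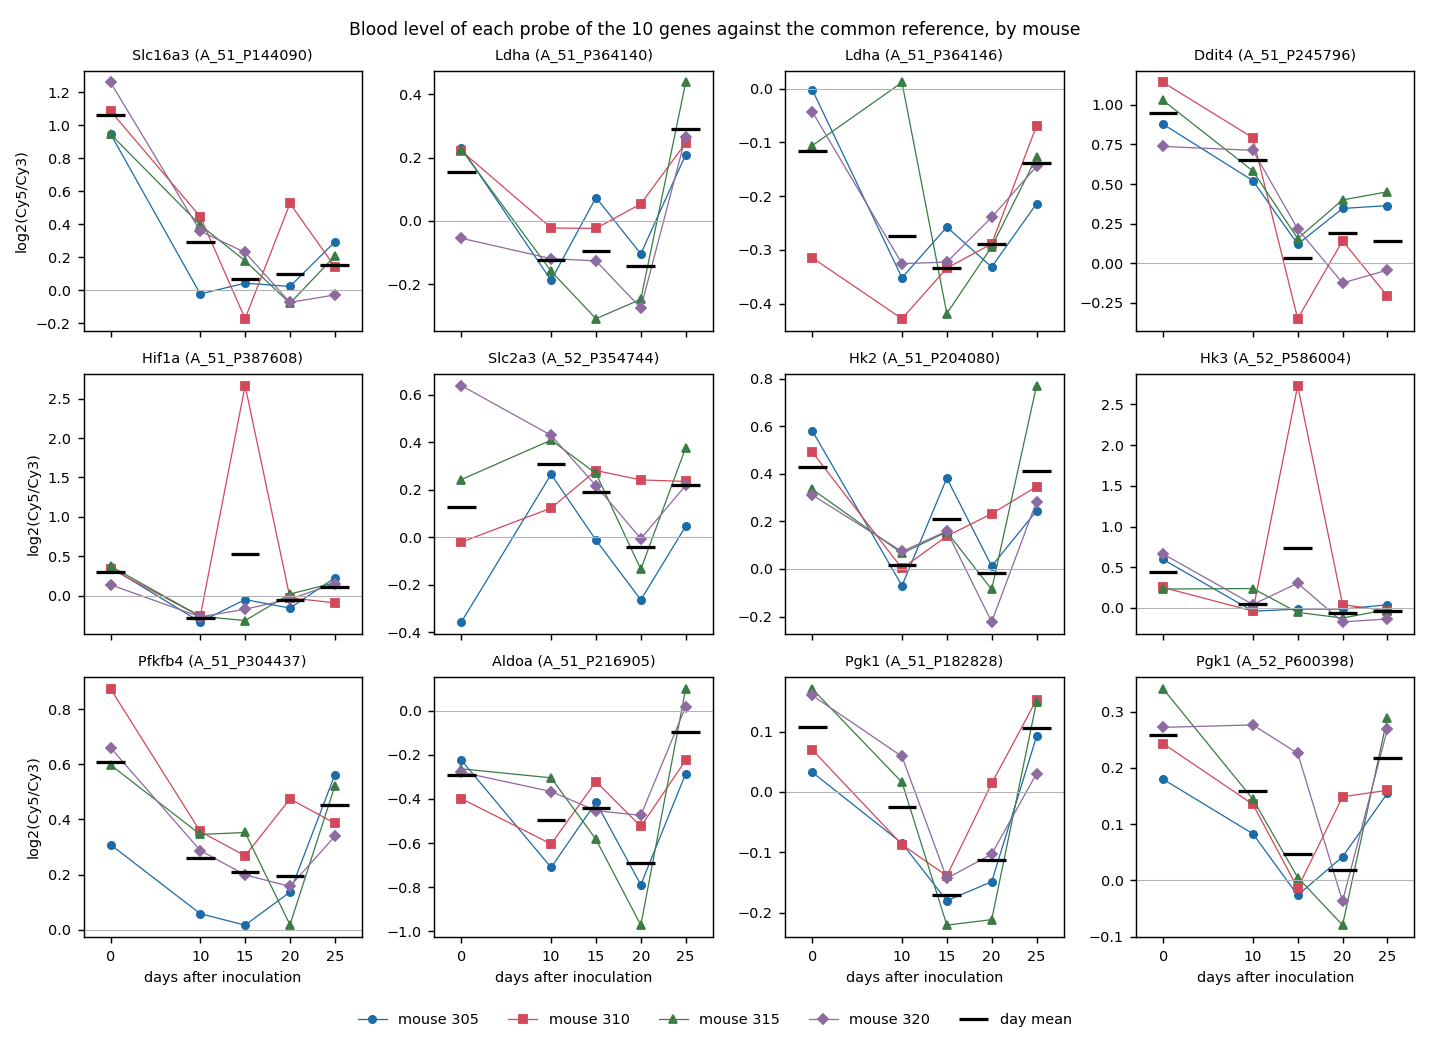
Log2(Cy5/Cy3) (y axes, scaled per panel) of each tested probe of the 10 genes at day 0 and 10, 15, 20 and 25 days after inoculation (x axis), with 1 marker and line per mouse and a black bar for the mean of the 4 mice. The 4 day 0 values of Slc16a3, from 0.94 to 1.26, lie above all later ones, and single values of Hif1a (2.67) and Hk3 (2.73) at day 15 stand apart from the other mice.

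Ddit4, also known as REDD1, is induced by low oxygen and by glucocorticoids and holds back mTORC1. It was lower at days 15, 20 and 25 than at day 0. Its values were 0.88, 1.14, 1.03 and 0.74 in mice 305, 310, 315 and 320 at day 0, and 0.52, 0.79, 0.58 and 0.71 at day 10. They were 0.12, -0.35, 0.16 and 0.22 at day 15, 0.35, 0.14, 0.40 and -0.12 at day 20, and 0.36, -0.21, 0.45 and -0.04 at day 25. The 3 later days did not overlap with day 0, and day 10 did. As for Slc16a3, the mean stood farthest from 0 at day 0 (0.95, against 0.65, 0.04, 0.19 and 0.14 later). The changes at days 15, 20 and 25 were -0.91, -0.76 and -0.81 against day 0 (SE 0.15, n = 4 mice, limma adjusted p = 0.000131, 0.00255 and 0.00291). At day 10 the change was -0.29 (adjusted p = 0.132 in limma), lower in 4 of 4 mice. At day 25 Ddit4 was lower than at day 10 by a log2 change of -0.51 (adjusted p = 0.011 in limma), a call that ended without mouse 310 of day 25 (-0.40, adjusted p = 0.052 in limma). That difference took the opposite sign when median centring replaced loess (0.27, adjusted p = 0.327). The call of day 25 against day 10 also ended with the Cy5 channel alone and with 1 unit in place of 50 added before taking logs. The day 20 and day 25 calls against day 0 ended with scale normalization between arrays, and that of day 25 also with the Cy5 channel alone.

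Hif1a encodes the oxygen-regulated subunit of HIF-1, whose control is mainly through the stability of the protein. Its values were 0.36, 0.34, 0.37 and 0.14 in mice 305, 310, 315 and 320 at day 0, and -0.33, -0.26, -0.26 and -0.27 at day 10. They were -0.05, 2.67, -0.32 and -0.17 at day 15, -0.16, -0.03, 0.02 and -0.04 at day 20, and 0.23, -0.09, 0.16 and 0.15 at day 25. Day 10 and day 20 lay wholly below day 0, and mouse 310 at day 15 lay far above every other array. With all arrays, no comparison of Hif1a passed the threshold, and the changes against day 0 were -0.59, 0.23, -0.36 and -0.19 (SE 0.39). Without the day 15 array of mouse 310, they were -0.59, -0.48, -0.36 and -0.19 (SE 0.08 to 0.09), and the first 3 passed the threshold in limma (adjusted p = 0.000109, 0.000576 and 0.00847). The high value came from 1 spot, with 903 Cy5 units over a local background of 218.5. The same spot read 135 to 161 units over a background of 112 to 115 on the other 3 arrays of the day.

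Hk3, a hexokinase of white blood cells, showed the same array apart. Its values were 0.59, 0.25, 0.23 and 0.66 in mice 305, 310, 315 and 320 at day 0, and -0.04, -0.04, 0.24 and 0.04 at day 10. They were -0.01, 2.73, -0.06 and 0.30 at day 15, -0.01, 0.04, -0.12 and -0.17 at day 20, and 0.04, -0.04, -0.02 and -0.14 at day 25. All values of days 20 and 25 lay below all of day 0. With all arrays the changes against day 0 were -0.39, 0.31, -0.50 and -0.47 (SE 0.37), and none passed the threshold. Without the day 15 array of mouse 310 they were -0.39, -0.36, -0.50 and -0.47, and all 4 passed (limma adjusted p = 0.0103, 0.022, 0.00473 and 0.00933). On that array 11 of 20920 probes exceeded the other 3 mice of the day by more than 2 log2 units, against 6, 1 and 1 probes on the arrays of mice 305, 315 and 320. Both probes are dim at the later bleeds, where the constant of 50 units added before taking logs weighs most. With a constant of 1 and the same array left out, the changes were -0.96, -1.03, -0.57 and -0.27 for Hif1a and -0.67, -0.63, -0.87 and -0.79 for Hk3, of which day 25 did not pass for either (limma adjusted p = 0.342 and 0.0565).

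**Figure D3:**
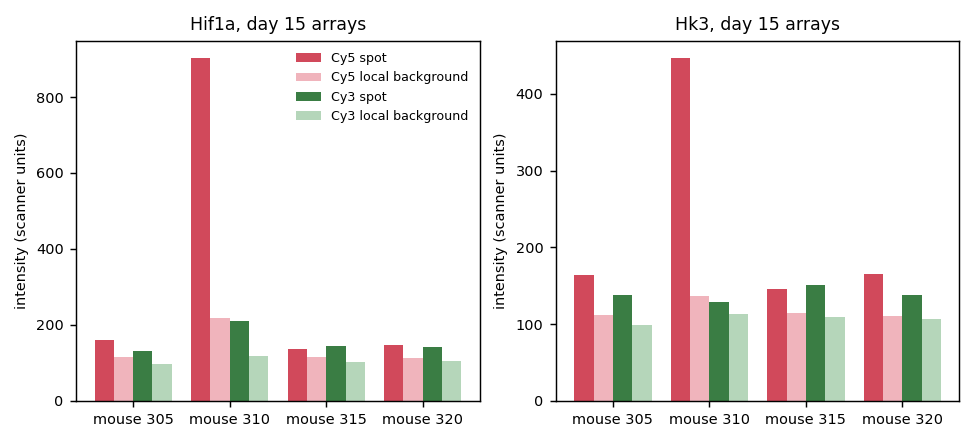
Spot and local background intensity in both channels (y axis, scanner units, from 0) for the Hif1a and Hk3 probes on the 4 day 15 arrays (x axis). The Cy5 spot of mouse 310 reads 903 units for Hif1a and 447 units for Hk3, above the other 3 mice.

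Hk2, the inducible hexokinase that phosphorylates glucose on entry, was lower at days 10 and 20 than at day 0 and higher again at day 25. Its values were 0.58, 0.49, 0.33 and 0.31 in mice 305, 310, 315 and 320 at day 0, and -0.07, 0.00, 0.07 and 0.07 at day 10. They were 0.38, 0.14, 0.16 and 0.16 at day 15, 0.01, 0.23, -0.09 and -0.22 at day 20, and 0.24, 0.35, 0.77 and 0.28 at day 25. Days 10 and 20 did not overlap with day 0 or with day 25. The change was -0.41 at day 10 and -0.45 at day 20 against day 0 (SE 0.11, limma adjusted p = 0.00817 and 0.0105). It was 0.39 at day 25 against day 10 and 0.43 against day 20 (adjusted p = 0.00879 and 0.0111 in limma). No call of Hk2 ended with an array left out. Both calls against day 0 ended with scale normalization and with the default background estimate (adjusted p up to 0.197 in limma).

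Slc2a3 encodes GLUT3, a high-affinity glucose transporter of white cells and platelets. One probe, A_52_P354744, was measured on all arrays and had values of -0.36, -0.02, 0.24 and 0.64 in mice 305, 310, 315 and 320 at day 0. The later arrays lay between -0.26 and 0.43, inside the spread of day 0. No comparison passed the threshold, and the changes against day 0 were 0.18, 0.06, -0.17 and 0.09 (SE 0.15), with 95% intervals reaching from -0.48 to 0.50. The other 2 probes, A_52_P283862 and A_52_P371514, were not well above background on any array. The scanner files of day 15 place the first of them on another chromosome than the other two.

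Pfkfb4 makes and breaks fructose 2,6-bisphosphate, which sets the pace of phosphofructokinase. Its values were 0.31, 0.87, 0.60 and 0.66 in mice 305, 310, 315 and 320 at day 0, and 0.06, 0.36, 0.35 and 0.29 at day 10. They were 0.02, 0.27, 0.35 and 0.20 at day 15, 0.14, 0.47, 0.02 and 0.16 at day 20, and 0.56, 0.39, 0.52 and 0.34 at day 25. Each mouse was lower at days 10, 15 and 20 than at its own day 0, though the ranges overlapped, since mouse 305 had the lowest day 0 value. The changes were -0.35, -0.40 and -0.41 against day 0 (SE 0.12, limma adjusted p = 0.0249, 0.0101 and 0.0193). At day 25 the change was -0.16 (95% interval -0.40 to 0.08). The first and the third of these calls ended without mouse 310 of day 0, and also without mouse 305 of day 10 and mouse 315 of day 20, at adjusted p of up to 0.0935. With the scanner's own log ratio the day 10 and day 15 calls ended, and with scale normalization all 3 did. The Cy5 channel alone ended those of days 10 and 20, and the day 20 call also ended with a constant of 1 and the default background estimate.

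Aldoa encodes aldolase A, which splits fructose 1,6-bisphosphate. Its tested probe, A_51_P216905, had values of -0.22, -0.40, -0.26 and -0.28 in mice 305, 310, 315 and 320 at day 0, and of -0.71, -0.60, -0.30 and -0.37 at day 10. It had -0.42, -0.32, -0.58 and -0.45 at day 15, -0.79, -0.52, -0.97 and -0.47 at day 20, and -0.29, -0.22, 0.10 and 0.02 at day 25. Day 20 lay wholly below day 0, and day 25 wholly above days 10 and 20. The change was -0.40 at day 20 against day 0 (SE 0.12, limma adjusted p = 0.0233). That call ended without mouse 305 of day 0 or mouse 305 or 315 of day 20, at adjusted p of up to 0.0941. It also ended with a constant of 1, the default background estimate and no background correction (adjusted p up to 0.153 in limma). At day 25 the change was 0.40 against day 10 and 0.59 against day 20 (adjusted p = 0.0102 and 0.00153 in limma). The latter was the largest change of the 12 probes in that comparison. A second probe, A_52_P98387, was left out of the tests because 2 of its 4 day 0 spots and 1 at day 15 were marked non-uniform. Its remaining values were -0.13 and -0.07 at day 0, ran from -0.65 to -0.31 at days 10, 15 and 20, and from -0.19 to 0.03 at day 25.

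Pgk1 encodes phosphoglycerate kinase, the first step of the pathway that makes ATP. Its 2 probes share 38 of 60 bases and also list predicted transcripts of near-identical copies, so they are neither independent nor certain to read Pgk1 alone. The probe A_51_P182828 was spotted 10 times per array, with an SD between spots of 0.04 to 0.19. Its means were 0.03, 0.07, 0.17 and 0.16 in mice 305, 310, 315 and 320 at day 0, and -0.08, -0.09, 0.02 and 0.06 at day 10. They were -0.18, -0.14, -0.22 and -0.14 at day 15, -0.15, 0.01, -0.21 and -0.10 at day 20, and 0.09, 0.15, 0.15 and 0.03 at day 25. Days 15 and 20 lay below day 0 in all mice. The changes were -0.28 and -0.22 at days 15 and 20 against day 0, and 0.22 at day 25 against day 20 (SE 0.07, limma adjusted p = 0.00359, 0.0327 and 0.0312). The other probe, A_52_P600398, was lower by -0.21 and -0.24 at days 15 and 20 against day 0 (SE 0.08, limma adjusted p = 0.0363 and 0.0365). Of these 5 calls, that of A_51_P182828 at day 15 was kept with any 1 array left out. It ended with the scanner's log ratio and with the Cy5 channel alone (adjusted p up to 0.0748 in limma). The other 4 ended without any 1 of 5 or 6 arrays of the days compared, at adjusted p of up to 0.113. Each of these 4 also ended under 2 to 4 of the processing alternatives. At day 25 neither probe differed from day 0 past the threshold, at changes of -0.00 and -0.04 with 95% intervals from -0.20 to 0.14.

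Other genes of the pathway passed the threshold in both directions after loess, and almost wholly as lower than at day 0 after median centring. The same held for all probes tested. The list held 84 tested probes of 62 genes: glucose uptake, the remaining enzymes, control of phosphofructokinase, lactate and pyruvate, oxygen sensing, HIF targets, mTORC1 and glucose sensing, and glycogen. Its probes were higher and lower in number by 20 and 18 at day 10, 17 and 22 at day 15, 5 and 13 at day 20, and 5 and 9 at day 25 against day 0. At day 25 they were 18 and 21 against day 10, and 7 and 11 against day 20. Of all probes tested, 15.6% and 19.4% were higher and lower at day 10, and 18.1% and 20% at day 15. These shares were 7.17% and 10.5% at day 20 and 5.4% and 6.85% at day 25, each against day 0. At day 25 the shares were 19.3% and 17.8% against day 10, and 8.3% and 10.5% against day 20. The median change of the list lay between -0.07 and 0.08 in all 6 comparisons. The numbers of the list moved with the processing. At day 25 against day 0 they were 0 and 0 with the default background estimate in limma, and 2 and 4 with a constant of 1. Of all 20920 probes, 8 and 23 were higher and lower with the former, and 194 and 330 with the latter. With median centring in place of loess the list had 1 and 59 at day 10, 1 and 64 at day 15, and 0 and 67 at day 20. It had 1 and 32 at day 25 against day 0, and 42 and 1 at day 25 against day 20. Median centring moved the median of all probes by -0.61, -0.68, -0.65 and -0.25 against day 0 and by 0.34 in the last comparison. Under it 14126, 14813, 15252 and 5769 of all 20920 probes were lower at days 10, 15, 20 and 25 than at day 0. Those higher were 416, 249, 186 and 147. At day 25 against day 20, 10320 were higher and 288 lower. The directions below are those after loess.

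**Figure D4:**
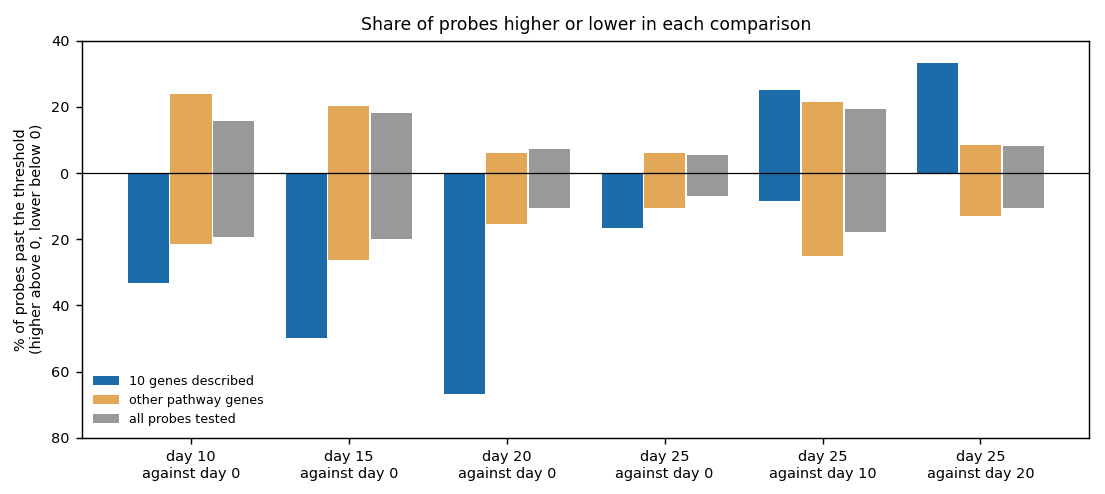
Share of tested probes that were higher (above 0) or lower (below 0) at an adjusted p under 0.05 (y axis, %) in each of 6 comparisons (x axis), for the 12 probes of the 10 genes, the 84 probes of other pathway genes and all 20920 probes. At day 20 against day 0, 8 of 12 probes of the 10 genes were lower, while all probes were lower in 10.5%.

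Among the lowest of these genes against day 0 was Pygl, the glycogen phosphorylase of liver and white cells, by 1 of its 2 probes, at -1.04, -1.05, -1.08 and -0.71 for days 10, 15, 20 and 25 (limma adjusted p from 4.4e-05 to 0.0062). A probe of Sesn2, a stress-induced inhibitor of mTORC1, was lower by -0.74, -0.68, -0.92 and -0.53, while another of its probes was higher at days 10 and 15. The glucose transporters Slc2a1, at -0.57, -0.61 and -0.40 for days 10, 15 and 20, and Slc2a6, at -0.47, -0.76, -0.55 and -0.58 for the 4 days, were lower too. Eno3, a muscle enolase, was lower at days 15 and 20 (-0.87 and -0.49), and Arnt, the partner of Hif1a, at day 10 (-0.54) by 1 of its probes, with another higher. The remaining lowest values against day 0 were 1 of 2 probes of Pdk3 at day 20 (-0.44) and, at day 25, Mpc2 (-0.96), Bsg (-0.83) and Bpgm (-0.75).

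Higher than at day 0 were Hif3a (1.18, 1.16 and 0.72 at days 10, 15 and 20), Car9 (0.76, 0.82 and 0.30) and, at all 4 days, Epas1 and Slc16a7 by at least 1 probe. Epas1 encodes the oxygen-regulated subunit of HIF-2 and reached 0.69 at day 15 and 0.60 at day 25. Slc16a7, another monocarboxylate transporter, stood at 0.36 at day 20 and 0.49 at day 25. Slc16a1, which encodes the widespread lactate transporter MCT1, was higher at day 10 by 1 of its 3 probes (0.78), and the other two, at 0.34 and 0.15, did not pass. Mpc2, Bsg and 1 of 2 probes of Bpgm were higher at day 10 (0.63, 0.62 and 0.61) and at day 15 (0.76, 0.69 and 0.76). The other Bpgm probe did not pass at these days (0.31 and 0.23). Bsg encodes basigin, the chaperone that Slc16a3 and Slc16a1 need at the cell surface, and Bpgm makes the red cell's 2,3-bisphosphoglycerate. One probe of Sesn1 was higher at days 20 and 25 (0.30 and 0.50), and Fam162a and Ero1a at day 25 (0.41 and 0.35).

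At day 25, Mpc2, Bsg, Hif3a and both probes of Bpgm were lower than at day 10 by -1.05 to -1.58 and lower than at day 20 by -0.85 to -1.21. Gpi1, the enzyme after hexokinase, was higher at day 25 than at day 10 (0.47) and than at day 20 (0.39), and so was the HIF target Fam162a (0.47 and 0.45). One probe of Epas1 (0.58), Pgk2 (0.47) and Slc2a1 (0.44) completed the highest at day 25 against day 10. Against day 20 these were 1 probe each of Sesn2 (0.39), Mpc1 (0.35) and Pdk1 (0.33), while the other probe of Sesn2 was lower (-0.36).

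Marker genes of blood cells were counted beside these results. Of all probes tested, 15.6%, 18.1%, 7.17% and 5.4% were higher at days 10, 15, 20 and 25 than at day 0. The shares lower were 19.4%, 20%, 10.5% and 6.85%. At day 25, 19.3% were higher and 17.8% lower than at day 10, and 8.3% and 10.5% than at day 20. Of 17 probes of neutrophil markers, for 13 of 14 genes, 14 were lower at day 10, 14 at day 15, 14 at day 20 and 11 at day 25 than at day 0. At each of days 10, 15 and 25, 1 was higher. The mean log2 ratio of these probes was 0.58 to 1.28 over the arrays of day 0, -0.30 to 0.23 at day 10, -0.16 to 0.19 at day 15, -0.49 to 0.18 at day 20 and 0.02 to 0.43 at day 25. As for Slc16a3, no later array reached the lowest day 0 array, and the later arrays lay nearer 0 than those of day 0. Of 14 probes of red cell precursor markers, 9 were higher at day 10 and 7 at day 15 than at day 0, and 11 were lower at day 25. At day 25, 12 were lower than at day 10 and also 12 than at day 20, the comparisons in which Ldha, Hk2 and Aldoa were higher. Their mean ratio was -0.70 to -0.30 over the day 25 arrays, against 0.37 to 0.95 over those of day 20. Neutrophil markers were higher for 4 of 17 probes and lower for 1 at day 25 against day 10 and likewise against day 20, with median changes of 0.29 and 0.42. B cell markers were higher for 6 of 12 probes and lower for 1 at day 25 against day 10, and higher for 2 against day 20. T cell markers were higher for 4 of 15 at day 25 against day 10 and for 0 against day 20. In the latter, 3 passed an unadjusted p under 0.05 in limma, as did 32.7% of all probes. Platelet markers were higher for 1 of 8 and lower for 2 at day 25 against day 10, and higher for 3 against day 20 (median change 0.47). Against day 0, 2 of 8 platelet probes were lower at day 20, 2 were higher and 1 lower at day 10, and 1 each at day 15. Of 12 B cell probes, 2 were higher at day 25, 1 higher and 1 lower at day 10. At day 15, 1 B cell probe was higher and 2 were lower, and at day 20 1 was higher. T cell markers were lower for 7 of 15 probes at day 15, and those of monocytes for 3 to 4 of 13 at days 10, 15 and 20. At day 10, 1 monocyte probe was higher. Several of these counts, such as 3 of 13 for monocytes at day 10, lie near the share of all probes. The part of these cell types in the changes of the 10 genes was not tested. In whole blood, fewer cells of a type and less RNA per cell cannot be told apart. Of the hepatoma and liver list, Apoa1 was not well above background on any array, and of 8 probes tested 1 was higher and 1 lower at day 10, 2 were higher at day 15, and 0 passed in limma at days 20 and 25 against day 0 (1 each at an unadjusted p under 0.05). At day 25 against day 10, 1 was higher and 2 were lower. The mean log2 ratio of these 8 probes was 0.00 to 0.90 over the day 25 arrays. Over the arrays of the other days it was -0.10 to 0.41.

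**Figure D5:**
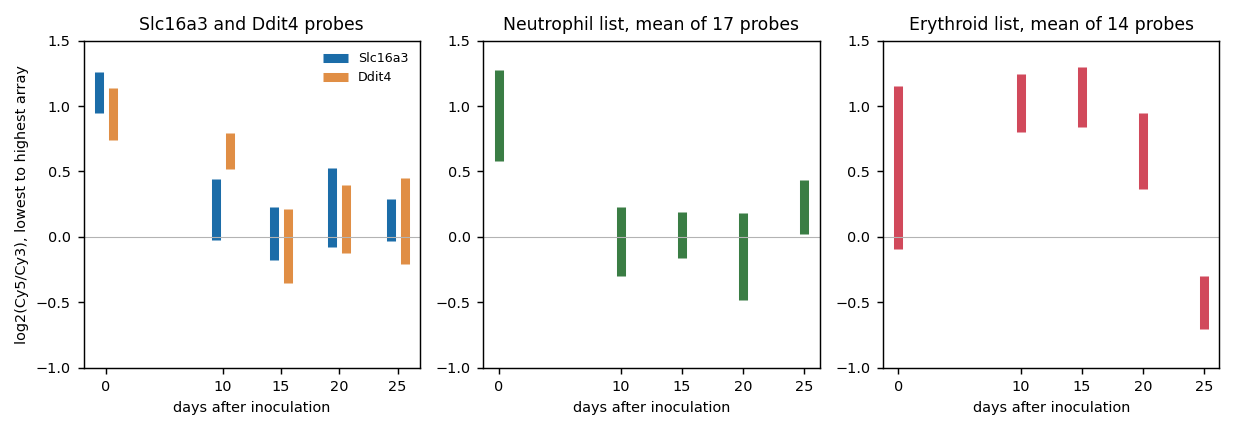
Log2(Cy5/Cy3) from the lowest to the highest of the 4 arrays of a day (y axis) at day 0 and 10, 15, 20 and 25 days after inoculation (x axis), for the Slc16a3 and Ddit4 probes (left), the mean of 17 neutrophil marker probes (middle) and the mean of 14 erythroid marker probes (right). The neutrophil bar of day 0, 0.58 to 1.28, lies above all later bars, as does that of Slc16a3.

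The probes most like Slc16a3 over the 20 arrays, each centred on its own day 0 mean, were those of Trpm2, Gsr, Il13ra1, Pram1 and Rnd1. Their root mean square difference from it was 0.18 log2 units for each. Trpm2 changed by -0.95, -1.01, -1.06 and -0.73 at days 10, 15, 20 and 25 against day 0. Most like Ddit4 were Tiam2, Cxcr4, Scnn1a, another probe of Gsr, and Fgr, at 0.23 to 0.27 log2 units. Of these, Tiam2 and Cxcr4 were also little changed at day 10 (-0.31 and -0.26) and lower at day 15 (-0.86 and -0.81). These are descriptions over 20 arrays that share the reference and the slides, and they carry no test.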

How the data were processed

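The deposited scanner files hold intensity values, which per the file headers are mean spot signals and median local backgrounds in both channels from Agilent Feature Extraction 9.1.3.1, and log10 ratios of red over green after its dye normalization. The deposited series table held the same log10 ratios (900360 of 900360 equal within 1e-6). Its direction is mouse sample over reference, per the labels' dyes.

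Here, local background was subtracted, normexp was applied with an offset of 50, and loess, in which control spots had weight 0, normalized each array (limma 3.58.1, R 4.3.3). Control spots (1486 positive, 153 negative) and non-uniform spots (10 to 248 an array) were left out. Spots of 1 probe were averaged. Probes were kept if well above background in Cy5 on at least 4 of 20 arrays and present on 3 or more arrays each day. Names came from a gene table of GRCm38.p6. One lmFit and eBayes fit of 5 day means covered all 20 arrays, two-sided, with Benjamini-Hochberg adjustment over all probes kept. The script was tested on simulated data.

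The design named normexp without saying how its background is estimated. limma's default, used first, gave a background SD above 50 units in Cy5 on 13 of 20 arrays (up to 814) and in Cy3 on 11 (up to 767), while negative control spots spread by 4.06 to 8.51 and 2.94 to 13.5 (MAD). The estimate was therefore taken from the negative control spots. This change was made after the results of the default had been seen, and it raised the number of calls over all probes in 5 of the 6 comparisons, for example 7335 against 2343 at day 10 against day 0. The default is kept as an alternative.

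The genes, lists and tests were chosen with earlier results of these data known. Genes named from the wider list are the up to 5 highest and 5 lowest probes past the threshold per comparison, repeated at other days. Mouse numbers pair the samples, being the same animals. Deviations from day means correlated at a mean r of 0.0617 across probes over 40 pairs of arrays of 1 mouse (16 above 0.1) and at -0.0203 over 120 pairs of different mice. The number of arrays limits the precision. Nothing says that the 4 mice were handled apart, and slide and day coincide, so p-values measure the spread between arrays of 1 slide.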

Additional observations from a re-analysis of the deposited data

Results flagged for a closer look

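Among 60 groups of 4 mice (12 probes on 5 days), 9 held 1 mouse standing apart from the other 3 by Dixon's test at the 95% level, where chance gives about 1 in 20. The widest gaps were those of mouse 310 at day 15, with 2.67 for Hif1a and 2.73 for Hk3. The same array was apart for Ddit4 at -0.35. Other single values were 0.52 for Slc16a3 in mouse 310 at day 20, 0.38 for Hk2 in mouse 305 at day 15, and 0.23 for the Pgk1 probe A_52_P600398 in mouse 320 at day 15. Mouse 320 at day 0 stood apart for the Ldha probe A_51_P364140 at -0.055 and for Hif1a at 0.14, and mouse 305 at day 10 for Hif1a at -0.33. All are log2(Cy5/Cy3) values.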

How the results depend on the processing

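Of 28 calls, 17 were kept with any 1 array left out and 9 under every alternative as well. Counts of the 12 probes past the threshold were 4, 6, 8 and 2 at days 10, 15, 20 and 25 against day 0, 4 and 4 at day 25 against days 10 and 20, and 8 in the F test. They changed by over 1.5 times as follows. Median centring in place of loess gave 12 at day 10, 10 at day 15, and 9 and 10 at day 25 against days 10 and 20, where it called 69.5%, 72%, 56.4% and 50.7% of all probes. It moved the median of all probes by -0.61, -0.68, -0.65 and -0.25 against day 0 and by 0.32 and 0.34 in the last 2 comparisons. Under it the signs turned for Slc16a3 (0.62) and Ddit4 (0.27) at day 25 against day 10, Ddit4 at day 25 against day 20 (0.75), and Slc2a3 at day 10 (-0.91) and day 15 (-1.34) against day 0 and at day 25 against day 10 (0.67). Scale normalization between arrays gave 1, 4 and 1 at days 10, 20 and 25 against day 0 and ended 13 calls. Of all 20920 probes it called 6389, 3602 and 979 there. The scanner's log ratio gave 5 at day 20, and Cy5 alone gave 2 at day 10 and 1 at day 25. Of all probes the former called 2477 at day 20, and the latter 5164 and 2266 at days 10 and 25. A constant of 1 in place of 50 gave 3 at day 20, where it called 1905 of all probes. The default background estimate gave 2, 2 and 1 at days 10, 20 and 25 against day 0 and ended 10 calls. Over all probes it called 2343, 1227, 607 and 31 against day 0, where 7335, 7962, 3697 and 2564 were called here. For the last of these the constant of 1 gave 524 and scale normalization 979. The cause of these differences was not tested. Leaving out 1 array gave 2 to 6 calls at day 10 and 4 to 7 at day 15. It gave 3 to 10 at day 20 and 2 to 3 at day 25, each against day 0. It gave 3 to 5 and 3 to 6 at day 25 against days 10 and 20, and 7 to 9 in the F test. Over all probes it called 5725 to 8096 at day 10 and 6293 to 8330 at day 15. At days 20 and 25 these were 2129 to 4503 and 1223 to 3737. The last 2 comparisons had 6445 to 8123 and 2436 to 4533, and the F test 10387 to 11373. It moved Hif1a at day 15 between -0.48 and 0.51 and Hk3 between -0.36 and 0.57, the lowest values being those without mouse 310.

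With the mouse as replicate block the counts were 4, 6, 8, 2, 4, 4 and 8, and no call changed (72 of 72). Over all probes this block gave 7731, 8319, 4250, 3194, 7965, 4367 and 11643. Quantile scaling of brightness leaves every ratio as it is and tests nothing. The slide could not be fitted as a block, since each day is 1 slide. The default background estimate, the constant of 1 and scale normalization were added after the data had been seen. Probes near background, Hif1a and Hk3 above all, are limited by their signal.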
